A study of Mus musculus with 2 samples.

Results

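The subunits of oxidative phosphorylation (OXPHOS) were followed in single cells of mouse lung, in 1 library from Pclaf WT and 1 from Pclaf KO mice. The set holds every row of both matrices whose symbol begins with Nduf followed by a, b, c, s or v and a number, Cox4 to Cox8, Uqcr or Atp5, is Sdha, Sdhb, Sdhc or Sdhd, or is a mitochondrial mRNA of the mt-Nd, mt-Co, mt-Atp or mt-Cytb series. These were 97 of 31053 rows, with 96 symbols, because Atp5o stands in 2 rows. In all, 84 rows are encoded in the nucleus and 13 in mitochondrial DNA. The nuclear members comprised 35 of complex I, 4 of complex II, 8 of complex III, 20 of complex IV and 17 of complex V, and the mitochondrial members 7, 1, 3 and 2 of complexes I, III, IV and V. Ndufa4 and Ndufa4l2 carry complex I names and were counted in complex IV, where the Ndufa4 protein sits. Members were taken by symbol and not by a measured value, though earlier results of these data were known when the rule was set. Of the 97, 95 had at least 50 UMIs (unique molecular identifiers, counted as captured transcripts) over the kept cells of both libraries. Cox7b2 and Cox8c did not.

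OXPHOS is the pathway by which mitochondria make most of the ATP of a resting cell. Complex I takes electrons from NADH and complex II from succinate, complex III passes them to cytochrome c, complex IV hands them to oxygen, and complex V, the ATP synthase, uses the proton gradient that complexes I, III and IV build. The core of complexes I, III, IV and V is partly encoded in mitochondrial DNA and transcribed inside the organelle, whereas every subunit of complex II and most other subunits are nuclear genes whose proteins are imported. Several complex IV subunits exist as paralogs, of which one is used in nearly all tissues and the other is known from heart, skeletal muscle, testis or vascular cells. In the alveolus, type II (AT2) cells make surfactant, renew themselves after injury and pass through a Krt8-high transitional state on their way to flat type I (AT1) cells.

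Both groups were mice aged 8 to 10 weeks that had received bleomycin, a drug that injures the lung, at a stated dose of 1.35 U/kg and were studied 1 week later. The Pclaf WT group carried intact Pclaf, a gene for a PCNA-binding protein of dividing cells, and the Pclaf KO group lacked it in the germline. Epcam-positive lung cells negative for Cd31 and Cd45 were the sorted fraction named for both groups, and 1 library per genotype was made with 3' chemistry. How many animals went into a library is not given in the sources used here. With 1 library per genotype, a difference between libraries cannot be told apart from a difference between genotypes and has no test. All intervals below are 95% exact intervals (Poisson for a level, binomial for a share, conditional for a ratio) and cover counting error only.

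The WT library held 30669 barcodes and 98171818 UMIs, and the KO library 17172 barcodes and 111267567 UMIs. The study's limits on cells (more than 200 and fewer than 5000 genes, under 20% mitochondrial UMIs) kept 30187 and 15637 cells with medians of 2127 and 5957 UMIs. The last of these limits uses the mitochondrial members themselves. Each kept cell was assigned to the class with most detected genes among 6 markers, with at least 3 detected and no tie, and 19957 WT cells (66.1%) and 13288 KO cells (85.0%) received a class. None of the markers is an OXPHOS member. Epithelial classes made up 8.31% of the gated WT cells and 76.0% of the gated KO cells, and immune classes 46.6% and 3.02%, so most gated WT cells had markers of other cells than the sorted fraction. Levels are given in CPM, the UMIs of a gene per 1000000 UMIs of the cells summed. Over all kept cells Pclaf, the targeted gene, had 3763 UMIs (39.3 CPM) in the WT and 529 (5.19 CPM) in the KO library, which differ in cell makeup as well. The study's methods name male mice, and both libraries held Xist, which is transcribed from the inactive X of female cells (254 CPM in WT, 498 CPM in KO) together with 4 Y-linked genes (183 CPM in WT, 68.6 CPM in KO), and the libraries shared 163 barcodes. Classes are called "-like" because they rest on markers alone; 23 of 26 had at least 50 cells in WT and 14 had as many in both libraries, and no other class is given a value. A level in CPM is a share of a class's UMIs, so a lower level of a gene and a higher level of the others cannot be told apart.

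The promoters of 66 of the 83 nuclear symbols were found in the RefSeq table (GRCm38.p6, 250 bases before and 50 after a gene's start), and 3 short words were searched on both strands: the palindromic NRF1 word, whose letters stand in capitals in the Cox6a1 promoter, CCGGAAGT, an ETS word that the GABP factor reads, and AAGATGG, the core of the YY1 word. The NRF1 word stood in 5 member promoters (7.58%) and in 0.977% of all 27025 promoters, the ETS word in 5 (7.58%) and in 4% of all, and the YY1 word in 9 (13.6%) and in 6.48% of all. At least 1 of the 3 stood in 19 member promoters, or 28.8%, against 11.0% of all. None of the words overlaps another in the promoters shown. Cox6a1, Cox6b1 and Cox8a, paralogs used widely, and Cox6b2 and Cox8b, paralogs of narrower use, are shown because the paralog results below turn on these sets, with matches in capitals. The Cox6a1 promoter (chr5:115348909-115349208, minus strand) holds 1 NRF1 word and the Cox8a promoter (chr19:7217567-7217866, minus strand) 2 ETS words. The Cox6b2 promoter (chr7:4753045-4753344, minus strand) and the Cox8b promoter (chr7:140900397-140900696, minus strand) hold none of the 3 within these 300 bases, and neither does that of Cox6b1 (chr7:30626065-30626364, minus strand). The promoters of Cox7a2, also used widely, and Cox7a1, not shown, hold none either. A match is a run of letters and not a measured site. Cox6a2, Cox4i1, Cox4i2 and Ndufa4l2 had no entry.
Cox6a1: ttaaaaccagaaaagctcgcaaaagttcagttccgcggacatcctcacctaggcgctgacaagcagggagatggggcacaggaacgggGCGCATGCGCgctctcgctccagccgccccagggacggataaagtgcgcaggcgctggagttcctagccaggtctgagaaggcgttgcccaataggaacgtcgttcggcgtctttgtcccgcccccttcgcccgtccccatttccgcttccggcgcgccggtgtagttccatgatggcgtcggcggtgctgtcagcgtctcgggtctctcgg
Cox8a: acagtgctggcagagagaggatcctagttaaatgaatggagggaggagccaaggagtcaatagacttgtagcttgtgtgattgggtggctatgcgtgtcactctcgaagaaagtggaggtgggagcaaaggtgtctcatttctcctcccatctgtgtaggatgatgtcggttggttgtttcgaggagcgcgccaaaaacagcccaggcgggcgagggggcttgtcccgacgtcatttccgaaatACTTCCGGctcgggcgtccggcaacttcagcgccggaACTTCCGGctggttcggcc
Cox6b1: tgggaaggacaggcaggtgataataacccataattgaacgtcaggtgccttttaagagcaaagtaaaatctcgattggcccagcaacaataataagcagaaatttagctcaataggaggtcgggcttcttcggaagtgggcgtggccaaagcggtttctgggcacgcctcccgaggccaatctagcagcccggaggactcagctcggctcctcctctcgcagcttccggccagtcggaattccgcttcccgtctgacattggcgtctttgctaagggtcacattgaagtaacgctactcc
Cox6b2: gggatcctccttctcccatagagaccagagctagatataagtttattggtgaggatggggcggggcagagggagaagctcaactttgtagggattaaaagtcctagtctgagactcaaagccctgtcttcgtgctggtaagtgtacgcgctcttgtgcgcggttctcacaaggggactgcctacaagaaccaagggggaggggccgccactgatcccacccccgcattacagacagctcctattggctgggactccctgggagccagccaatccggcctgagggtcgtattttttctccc
Cox8b: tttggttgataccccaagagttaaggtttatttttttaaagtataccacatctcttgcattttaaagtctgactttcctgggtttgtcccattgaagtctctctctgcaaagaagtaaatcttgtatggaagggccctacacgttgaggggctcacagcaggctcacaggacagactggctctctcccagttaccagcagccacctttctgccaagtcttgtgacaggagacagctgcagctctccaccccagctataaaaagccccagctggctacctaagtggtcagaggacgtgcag

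The nuclear-encoded subunits were highest in Krt8-high transitional-like cells of both libraries and differed 2.21-fold in WT and 1.97-fold in KO between the highest and the lowest class. Summed over the 84 rows, they took 23990 CPM (interval 23685 to 24297) in Krt8-high transitional-like cells of WT and 24687 CPM (24547 to 24828) in those of KO. Alveolar macrophage-like cells, which clear surfactant, were second in WT, with 22037 CPM (WT) and 20489 CPM (KO). AT1-like cells were second in KO, with 18538 CPM (WT) and 20746 CPM (KO), and the KO intervals of these classes overlapped. Ciliated-like cells, which beat mucus along the airway, had 18308 and 19403 CPM, and smooth muscle-like cells 18373 and 19556 CPM. The lowest values were those of neutrophil-like cells in WT (10854 CPM) and of club-like cells in KO (12511 CPM; 11500 CPM in WT). Club cells secrete heavily, and 41.6% of their UMIs in WT and 49.1% in KO came from a list of 10 surfactant and secretory transcripts. Without those transcripts in the denominator the club-like level was 19709 CPM (WT) and 24561 CPM (KO). Along the order of the 23 WT classes, 14 of the neighbouring pairs had overlapping intervals, and 7 did among the 14 KO classes. The order was much the same in both libraries (Pearson r = 0.93, Spearman rho = 0.89 over 14 classes that share a library within each column; a description).

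**Figure D1:**
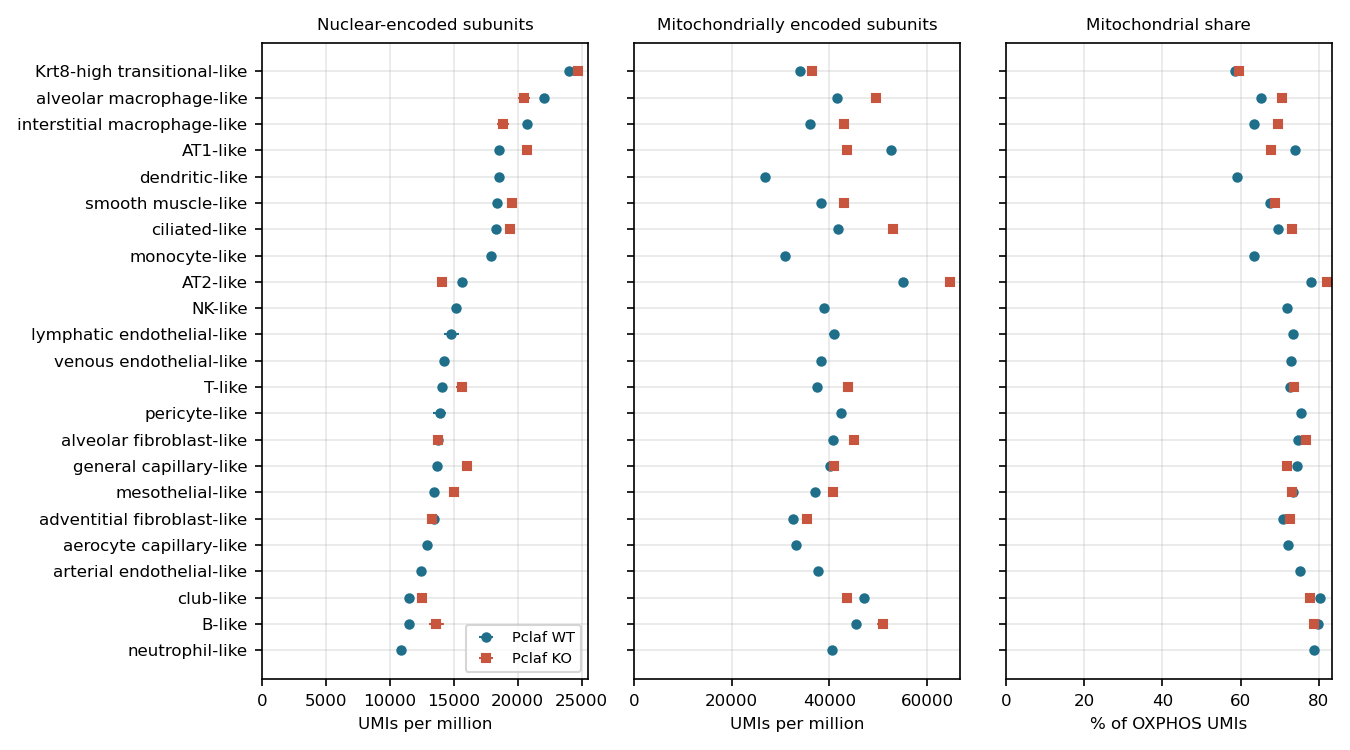
CPM of the summed nuclear members (left) and mitochondrial members (middle), and the mitochondrial share of all OXPHOS UMIs in percent (right), by marker-gated class, circles for the WT and squares for the KO library, with 95% counting intervals. Krt8-high transitional-like cells stand highest for the nuclear members (23990 and 24687 CPM). With all UMIs in the denominator, AT2-like cells stand highest for the mitochondrial members (55100 and 64763 CPM).

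The mitochondrially encoded subunits followed another order, with AT2-like cells highest when all UMIs were in the denominator. AT2-like cells had 55100 CPM (WT) and 64763 CPM (KO). AT1-like cells stood next in WT at 52638 CPM, whereas in KO they had 43656 CPM and ciliated-like cells (53096 CPM) stood next. The WT AT1-like cells were shallow, with a median of 951 UMIs. With at least 1000 UMIs per cell the AT1-like log2 ratio of KO over WT went from -0.27 to -0.03, and the rank among such cells is not given here. Krt8-high transitional-like cells, highest for the nuclear part, were low for the mitochondrial part with 33892 CPM (WT) and 36481 CPM (KO). Dendritic-like cells, which present antigen, were lowest in WT (26779 CPM) and adventitial fibroblast-like cells in KO (35465 CPM). Club-like cells had 46995 CPM (WT) and 43668 CPM (KO). The secretory list took 41.6% and 49.1% of their UMIs, against 15.8% and 21.9% in AT2-like cells. With that list left out of the denominator, club-like cells stand above AT2-like cells in both libraries. Across classes the nuclear and mitochondrial sums went with each other weakly if at all (Pearson r = -0.17 over 23 WT classes and -0.19 over 14 KO classes; a description, in which the classes of a library share its depth and its free RNA).

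The share of OXPHOS UMIs that came from mitochondrial DNA was lowest in Krt8-high transitional-like cells of both libraries. It was 58.6% (58.1 to 59.0) in WT and 59.6% (59.5 to 59.8) in KO for Krt8-high transitional-like cells. For AT2-like cells it was 77.9% (77.8 to 78.0) in WT and 82.1% (82.1 to 82.2) in KO. Dendritic-like cells of WT stood at 59.1% (58.8 to 59.5), an interval that overlapped that of WT Krt8-high transitional-like cells. Monocyte-like (63.3%) and interstitial macrophage-like cells (63.5%) were also low in WT, and club-like (80.3%), B-like (79.8%) and neutrophil-like cells (78.8%) high. Dendritic-like and monocyte-like cells were too few in KO for a value, so they are not in the KO order. Within single AT2-like cells the mitochondrial members took a median of 5.44% of UMIs in WT (10th to 90th percentile 3.02 to 10.8) and 6.19% in KO (2.98 to 12.9). Of the AT2-like barcodes within the limits on genes, 2.64% in WT and 4.09% in KO stood at or over the 20% limit and were not counted.

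With the UMIs of both libraries summed, single nuclear members varied over classes by a median of 1.19 log2 units from the lowest to the highest class. This covers the 10 classes with at least 100 cells in both libraries and 74 members with at least 50 UMIs in each. AT2-like UMIs came mostly from KO (4636688 WT, 53358841 KO) and general capillary-like UMIs mostly from WT (15851461 and 875291), so these ranges mix library with class. Of the 74, 48 were highest in Krt8-high transitional-like cells and 13 in ciliated-like cells, and 39 were lowest in club-like cells. The shares of all genes highest or lowest in these classes were not counted, so these numbers are not a trait of the members. The median of all genes in Krt8-high transitional-like over AT2-like cells was itself above 0 (0.23 log2 units in WT, 0.51 in KO). The club-like values include the secretory list in the denominator (41.6% of UMIs in WT, 49.1% in KO), which lowers the CPM of every other gene there. The widest range (2.26 log2 units) belonged to Sdhd, a membrane anchor of complex II (chr9:50596357-50603812, minus strand), which was at 132 CPM (WT) and 131 CPM (KO) for ciliated-like cells and at 33.8 and 26.0 CPM for club-like cells. Cox5a, a structural subunit of complex IV, ran from 612 CPM (WT) and 518 CPM (KO) in Krt8-high transitional-like cells to 154 and 100 CPM in mesothelial-like cells, which line the lung surface. Ndufc2, of the membrane arm of complex I, was at 485 and 513 CPM in ciliated-like cells and at 114 and 125 CPM in mesothelial-like cells. Ndufv1, which binds the flavin through which NADH enters complex I, went the other way, with 85.7 and 99.1 CPM in mesothelial-like and 17.6 and 26.4 CPM in club-like cells. Ndufb6, another membrane-arm subunit, was at 247 and 235 CPM in Krt8-high transitional-like cells and at 70.6 and 62.2 CPM in club-like cells.

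The share of each complex in the nuclear OXPHOS UMIs differed between classes. Complex II, the link to the tricarboxylic acid cycle, took 2.21% of nuclear OXPHOS UMIs in ciliated-like cells of WT and 2.03% in KO, against 1.55% and 1.20% in club-like, 1.68% and 1.69% in AT2-like and 1.55% and 1.40% in Krt8-high transitional-like cells. Complex IV took 32.5% and 32.6% in Krt8-high transitional-like cells and 29.6% and 28.3% in AT2-like cells. The members with most UMIs of each part were Ndufa13 of complex I, Sdha, the catalytic subunit of complex II, Uqcrh of complex III, Cox4i1 of complex IV and Atp5e of complex V. Atp5e, the epsilon subunit of the ATP synthase, ran over the epithelial classes from 384 CPM in club-like to 570 CPM in ciliated-like cells of WT, and from 490 CPM in club-like to 650 CPM in Krt8-high transitional-like cells of KO. Reads of Cox4i1 and Ndufa13 may be split with Gm20388 and Yjefn3, which overlap them on the same strand, as may those of Ndufb2, Ndufb8, Ndufb9 and both rows of Atp5o.

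Krt8-high transitional-like and AT2-like cells could be compared inside each library, which gave the comparison 2 libraries. Nuclear members were higher and mitochondrial members lower in the transitional class. The nuclear sum differed by 0.62 log2 units in WT (interval 0.60 to 0.64) and by 0.81 in KO (0.80 to 0.82), and the mitochondrial sum by -0.70 (-0.72 to -0.68) and -0.83 (-0.83 to -0.82). In WT, 46 of 78 nuclear members with at least 50 UMIs were higher by at least 0.5 log2 units, where 36.4% of all 9415 genes were, and 2 were lower by as much, against 21.1%. In KO, 62 of 80 were higher, where 50.4% of all 13562 genes were, and 2 were lower, against 16.1%. With 53358841 AT2-like and 4788201 Krt8-high transitional-like UMIs in KO, a gene could reach the minimum of UMIs through AT2-like cells alone. The part of this in the shares of all genes was not tested. The median nuclear member stood at 0.59 and 0.75 and the median of all genes at 0.23 and 0.51. The sum of 105 rows taken by symbol as cytosolic ribosomal protein genes differed by 0.64 in WT and 0.97 in KO, so a rise of this size was not particular to OXPHOS members. The symbol rule (Rps or Rpl and a number, Rplp and a number, or Rpsa) also takes in S6 kinase genes, whose symbols begin with Rps6. All 13 mitochondrial members were lower in both libraries, 11 in WT and 12 in KO by at least 0.5. AT2-like cells gave 15.8% of their UMIs in WT and 21.9% in KO to the surfactant and secretory list. Without that list in the denominator the nuclear difference was 0.38 in WT and 0.48 in KO and the mitochondrial difference -0.94 and -1.16. Immune markers stood at 732 CPM over all 6 genes of the list in WT AT2-like cells and 465 CPM in WT Krt8-high transitional-like cells, and at 96.3 and 65.8 CPM in KO, and 5 RNAs that stay in the nucleus at 14530 CPM in AT2-like and 24541 CPM in Krt8-high transitional-like cells of WT and at 15454 and 28827 CPM in those of KO. The part of either in the result was not tested.

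The member that departed most from the others was Cox6a2, the paralog of Cox6a1 known from heart and skeletal muscle, which was at 124 CPM in AT2-like and 10.2 CPM in Krt8-high transitional-like cells of WT, a log2 ratio of -3.61 (-4.68 to -2.72). In KO it was at 143 and 24.4 CPM, a log2 ratio of -2.55 (-2.82 to -2.29). Cox6b2, a paralog of Cox6b1 known from testis, stood at the other end, with 38.0 and 166 CPM in WT (2.12, interval 1.81 to 2.44) and 35.0 and 150 CPM in KO (2.10, interval 1.97 to 2.22). Ndufb6 (1.59 in WT, 1.65 in KO), Cox5a (1.41 and 1.66) and Ndufb9 (1.26 and 1.36), a peripheral complex I subunit named after its values were seen, were next. Of the mitochondrial mRNAs, mt-Co1, the catalytic subunit of complex IV, was lowest against AT2-like cells, at -1.10 in WT and -1.26 in KO.

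**Figure D2:**
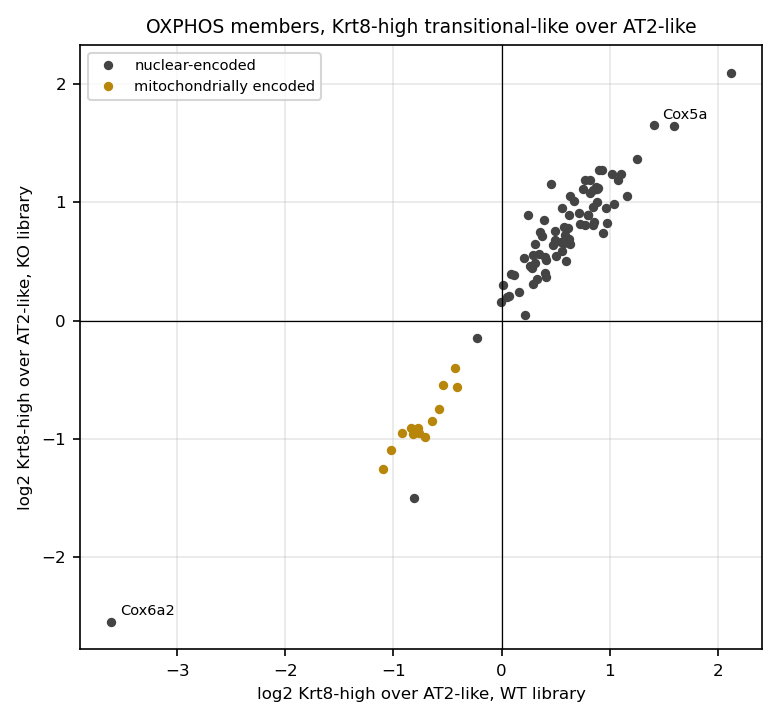
Log2 ratio of CPM in Krt8-high transitional-like over AT2-like cells for each OXPHOS member with at least 50 UMIs in both libraries, WT on the horizontal and KO on the vertical axis. Nuclear members (dark) lie mostly above 0 on both axes, mitochondrial members (gold) below 0 on both, and Cox6a2 at -3.61 and -2.55.

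Between AT1-like and AT2-like cells the nuclear members were higher and the mitochondrial members lower in KO, while in WT the mitochondrial members were split and the median nuclear member stood close to that of all genes. The nuclear sum differed by 0.56 in KO (0.54 to 0.57) and 0.25 in WT (0.22 to 0.27), and the mitochondrial sum by -0.57 (-0.58 to -0.56) in KO and -0.07 (-0.08 to -0.05) in WT. At least 0.5 log2 units higher were 50 of 80 nuclear members in KO, where 43.6% of all genes were, and 12 of 78 in WT, where 33.8% were. In each library 2 were lower, against 21.2% and 17.4% of all genes. KO AT1-like cells held 1903058 UMIs and KO AT2-like cells 53358841, so a gene could reach the minimum of UMIs through AT2-like cells alone. The part of this in the shares of all genes was not tested. The median nuclear member was at 0.61 in KO, with all genes at 0.37, and at 0.25 in WT, with all genes at 0.24. All 13 mitochondrial members were below 0 in KO, against 7 below and 6 above in WT. The WT AT1-like cells were shallow, with a median of 951 UMIs against 3953 in KO, and held the 6 immune markers at 1469 CPM against 95.1 CPM and the 5 red blood cell genes at 1038 CPM against 23.1 CPM. The 5 RNAs that stay in the nucleus summed to 17886 CPM (WT) and 33798 CPM (KO) in AT1-like cells. These values moved with the difference between libraries, and their part in it was not tested. In ciliated-like over AT2-like cells Sdhd was higher by 1.62 in WT and 1.95 in KO, and Ndufc2 by 0.98 and 1.08. There 16 of 78 nuclear members in WT and 31 of 80 in KO were higher by at least 0.5, where 36.3% and 44.1% of all genes were, and 6 and 4 were lower, where 22.1% and 22.2% were. KO ciliated-like cells held 7740453 UMIs, so here too a gene could reach the minimum through AT2-like cells alone.

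Cox6a2 (chr7:128205435-128206387, minus strand, on the other strand of Itgad) was an AT2-like transcript in both libraries. It made 37.4% (35.0 to 39.9; 575 of 1536 UMIs) of the Cox6a1 and Cox6a2 UMIs of AT2-like cells in WT and 43.4% (42.7 to 44.2; 7628 of 17562) in KO. Itgad had 0 UMIs in the WT and 3 in the KO AT2-like cells. The next highest share in WT was that of monocyte-like cells at 8.50% (6.29 to 11.2), then AT1-like cells at 6.77%, and in KO that of Krt8-high transitional-like cells at 5.25% (4.36 to 6.26). The median over classes was 1.41% in WT and 2.38% in KO. When cells were thinned to 1000 UMIs each, 9.94% of 795 WT and 12.4% of 7103 KO AT2-like cells had a Cox6a2 UMI, against 0.208% of 4819 WT and 0.826% of 242 KO general capillary-like cells and 0.284% of 1407 WT and 0.227% of 1763 KO alveolar fibroblast-like cells. Whether the UMIs in these other classes came from free RNA was not tested. Cox6a1 made up the rest of the pair and was at 207 CPM (WT) and 186 CPM (KO) in AT2-like cells. As a level in WT this lay between 142 CPM in B-like and 421 CPM in Krt8-high transitional-like cells.

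**Figure D3:**
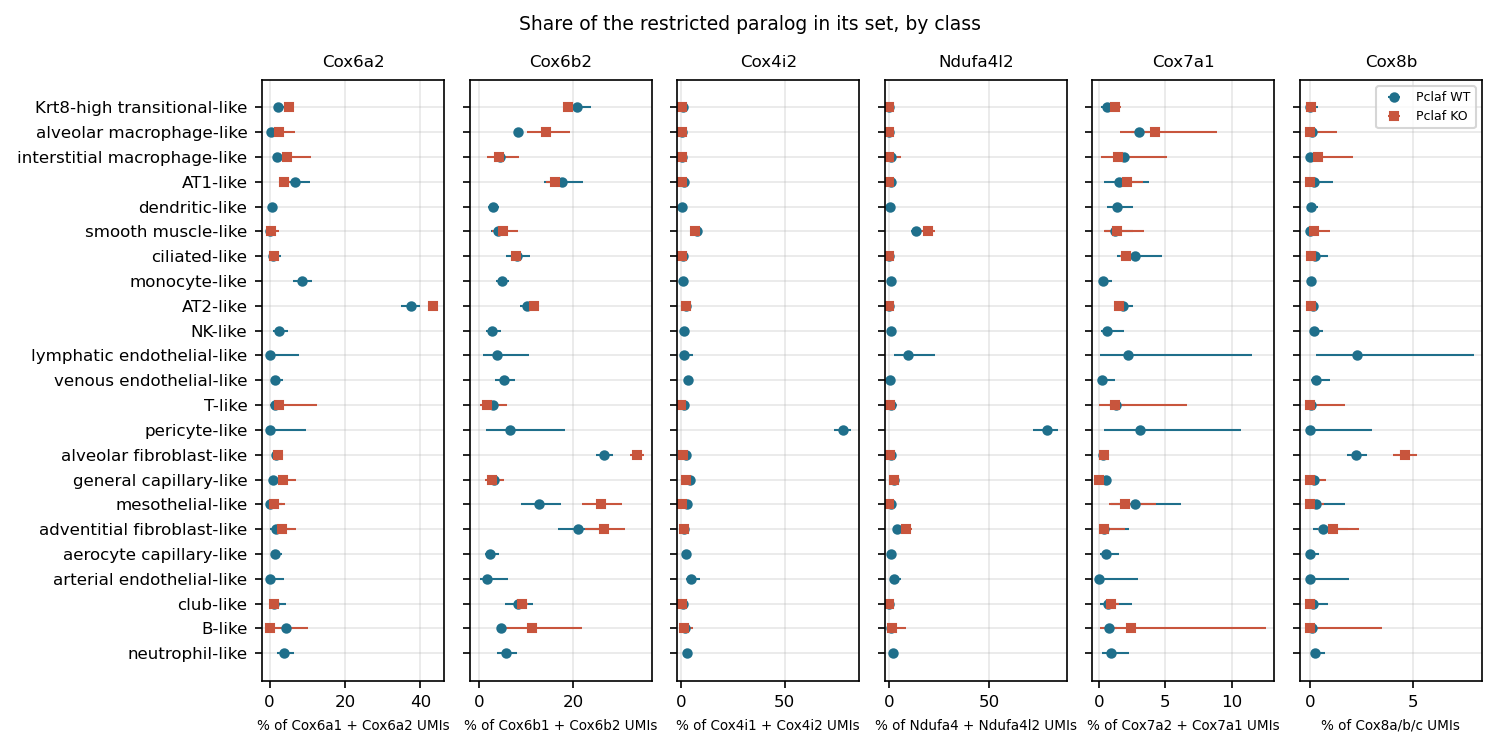
Share of the restricted paralog among the UMIs of its set, in percent, for Cox6a2, Cox6b2, Cox4i2, Ndufa4l2, Cox7a1 and Cox8b (panels have their own horizontal scales), by class, circles for WT and squares for KO, with 95% binomial intervals. Cox6a2 peaks in AT2-like cells (37.4% and 43.4%), Cox4i2 and Ndufa4l2 in pericyte-like cells of WT (78.1% and 78.4%), and Cox6b2 in alveolar fibroblast-like cells (26.6% and 33.4%).

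Pericyte-like cells, which wrap capillaries and had enough cells only in WT (85), held more Cox4i2 and Ndufa4l2 than Cox4i1 and Ndufa4 UMIs. Cox4i2 (chr2:152754173-152765037, plus strand), known as the oxygen-sensitive form of subunit 4, made 78.1% (73.8 to 82.0; 321 of 411 UMIs) of the Cox4 set there, at 1528 CPM. Gm20388, which overlaps Cox4i1, had 41 UMIs there that are not in this share. Ndufa4l2 (chr10:127514967-127517154, plus strand), a paralog of Ndufa4 known as a target of the hypoxia response, made 78.4% (71.4 to 84.3; 134 of 171 UMIs) of its set, at 638 CPM, while Shmt2 on its other strand had 2 UMIs. Smooth muscle-like cells, a related contractile type, had 7.45% Cox4i2 in WT (6.02 to 9.09) and 6.57% in KO (4.85 to 8.67). For Ndufa4l2 they had 13.6% in WT (11.2 to 16.3) and 19.3% in KO (15.9 to 23.0). General capillary-like cells had 4.31% Cox4i2 in WT and 2.06% in KO, and AT2-like cells 2.36% and 2.18%. At 1000 UMIs a cell, 76.9% of 78 pericyte-like cells had a Cox4i2 UMI and 48.7% an Ndufa4l2 UMI, against 1.89% and 1.04% of 4819 general capillary-like cells in WT. The pericyte-like cells also held the 6 endothelial markers at 1071 CPM, whose part in these shares was not tested. The pericyte gate was Higd1b, Notch3, Trpc6, Kcnj8, Cspg4 and Mcam.

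Cox6b2 (chr7:4751792-4753094, minus strand) was spread more widely, with fibroblasts highest as a share of the Cox6b1 and Cox6b2 UMIs, which is not a ranking of its level in CPM. It made 26.6% (24.9 to 28.4) of the Cox6b UMIs in alveolar fibroblast-like cells of WT and 33.4% (32.0 to 34.9) in KO. Adventitial fibroblast-like cells had 21.04% and 26.5%, and mesothelial-like cells 12.7% (8.98 to 17.3) and 25.9% (21.8 to 30.3), a gap between libraries whose intervals do not overlap. Among epithelial classes the share was 20.8% and 18.9% in Krt8-high transitional-like, 17.6% and 16.2% in AT1-like, 10.1% and 11.7% in AT2-like cells. Arterial endothelial-like cells in WT (1.71%) and T-like cells in KO (1.68%) were lowest. Cox8b (chr7:140898945-140900446, minus strand), the muscle and brown fat paralog of Cox8a, had 2.24% of its pair in alveolar fibroblast-like cells of WT (82 of 3667 UMIs) and 4.60% in those of KO (241 of 5236 UMIs). Elsewhere it stayed under that, except for 2 of 88 UMIs in lymphatic endothelial-like cells of WT.

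Cox7a1, the heart and muscle form of Cox7a2, did not pass 5% of its pair in any class, with 3.03% (2.42 to 3.75) in WT and 4.20% (1.56 to 8.91) in KO for alveolar macrophage-like cells and 1.18% and 1.35% for smooth muscle-like cells. Cox7b2 had 21 UMIs over all kept WT cells and 11 over KO cells, and Cox8c 1 and 5. The genes Atp5g1, Atp5g2 and Atp5g3 encode the same mature c subunit of the ATP synthase, and Atp5g2 was the largest part in B-like cells (55.6% in WT, 59.4% in KO) and smaller in alveolar macrophage-like cells (38.0% and 33.9%). Atp5g3 was highest in ciliated-like cells (33.0% and 32.4%) and Atp5g1 in alveolar fibroblast-like cells (37.5% and 41.3%).

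In AT2-like cells, the class with most KO cells (810 WT, 7137 KO), nuclear members were slightly lower and mitochondrial members slightly higher in KO than in WT. The nuclear sum was 15630 CPM (15516 to 15744) in WT and 14103 CPM (14071 to 14135) in KO, a log2 ratio of -0.15 (-0.16 to -0.14), which with TMM scaling turned to 0.03. The median of 80 nuclear members with at least 50 UMIs was -0.13 and that of all 13452 genes -0.18, and TMM moved all ratios of this class by 0.18 towards KO. The mitochondrial sum was 55100 CPM (WT) and 64763 CPM (KO), a log2 ratio of 0.23 (0.23 to 0.24), which ranged from 0.12 with a 10% mitochondrial limit to 0.41 with TMM. Of the 80 nuclear members, 64 were below 0, where 70.9% of all genes were, and 16 above, where 29.1% were. None reached 0.5 log2 units either way, where 20.8% of all genes were lower and 6.21% higher by as much. With 4636688 AT2-like UMIs in WT and 53358841 in KO, a gene could reach the minimum of UMIs through KO alone. The part of this in the shares of all genes was not tested. The 6 immune markers summed in AT2-like cells to 732 CPM (WT) and 96.3 CPM (KO), the 6 endothelial markers to 435 and 38.6 CPM and the 5 red blood cell genes to 109 and 22.2 CPM, with every marker above 0 in both. Their part in these ratios was not tested.

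Of the nuclear members in AT2-like cells, Cox5a was lowest in KO, with 230 CPM (WT) and 164 CPM (KO) (log2 ratio -0.49, interval -0.58 to -0.39). The ATP synthase c-subunit genes Atp5g2 and Atp5g3 followed, Atp5g2 with 307 and 227 CPM (-0.44) and Atp5g3 with 182 and 140 CPM (-0.37), and then Cox6b1 with 338 and 264 CPM (-0.35). Cox7a1 at -0.44 rested on 31 WT and 263 KO UMIs, and its interval (-0.98 to 0.15) held 0. At the upper end were Cox6a2, with 124 and 143 CPM (0.21, interval 0.08 to 0.33), and Ndufs8, an iron-sulfur subunit of complex I, with 63.4 and 73.0 CPM (0.20, interval 0.03 to 0.38). Ndufs3, Ndufa10 and Ndufv1, also of complex I, were at 0.13, 0.13 and 0.11 with intervals that held 0, and Ndufa10 went to -0.39 when cells were thinned. Of the mitochondrial members, all 13 were above 0, with mt-Nd3 (0.61) and mt-Nd1 (0.55) at least 0.5 higher and mt-Nd4 (0.04) lowest. The mt-Nd4 ratio turned to -0.06 with the 10% mitochondrial limit, -0.02 without doublets and -0.04 with thinned cells, and that of mt-Nd6 from 0.09 to -0.04 with thinned cells. The X-linked members Ndufb11, Ndufa1 and Cox7b were at -0.10, -0.15 and -0.08 (each past 0 with TMM), inside the range of the autosomal members, while Xist and the Y-linked genes differed between libraries as given above.

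**Figure D4:**
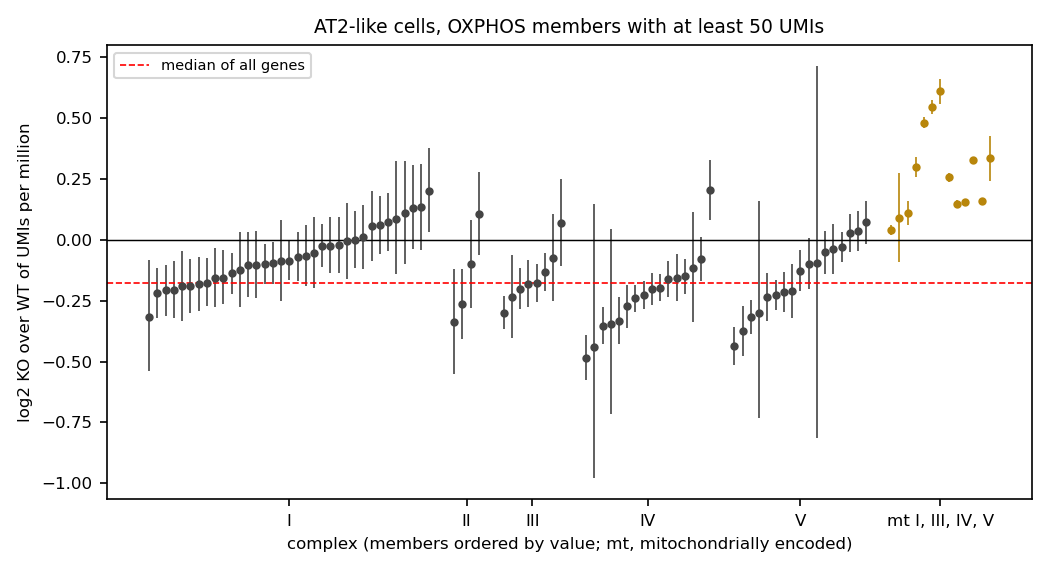
Log2 ratio of CPM, KO over WT, in AT2-like cells for each OXPHOS member with at least 50 UMIs, by complex (nuclear members dark, mitochondrial members gold), with 95% counting intervals and the median of all genes as a dashed line at -0.18. The 80 nuclear members lie between -0.49 and 0.21 and the 13 mitochondrial members between 0.04 and 0.61.

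Across the 14 classes with values in both libraries, the nuclear log2 ratio of KO over WT ran from -0.15 in AT2-like to 0.25 in B-like cells, with 10 classes above 0. The median nuclear member stood above the median of all genes in 13 of the 14 classes, by a median of 0.12 log2 units. In classes with many more WT than KO UMIs, such as general capillary-like cells (15851461 and 875291), weak genes could reach the minimum of UMIs through WT alone. The part of this in the medians and shares of all genes was not tested, so the 13 classes give no result about the members. For the nuclear sum, AT1-like cells had 18538 CPM (WT) and 20746 CPM (KO) (0.16), with 5 members higher by at least 0.5 and none lower where 20.6% and 14.8% of all genes were. General capillary-like cells had 13699 and 16012 CPM (0.23), with 6 members higher and 1 lower, where 12.1% and 21.2% of all genes were. Alveolar fibroblast-like cells, well filled in both libraries (1981 WT, 1914 KO), had 13746 and 13770 CPM (0.00, interval -0.01 to 0.01), with 2 members higher and 2 lower, where 5.57% and 13.3% of all genes were. Krt8-high transitional-like cells had 23990 and 24687 CPM (0.04), with 1 member higher and none lower, where 11.2% and 11.6% of all genes were. B-like cells had 15 members higher and 7 lower by at least 0.5 on 61 KO cells, where 13.1% and 45.1% of all genes were. In B-like cells the intervals of 9 members lay above 0 and those of 2 below 0. The share of all genes with such intervals was not counted. The cytosolic ribosomal protein sum was higher by 0.55 in KO B-like cells, so a rise there was not particular to OXPHOS members. In AT2-like and AT1-like cells that sum was at -0.30 and -0.45. The 7 lower members had few KO UMIs (Atp5s 0, Ndufs1 1, Ndufa9 2, Sdhc 3, Ndufa10 4, Sdha 12, Atp5a1 23). With 6029046 B-like UMIs in WT and 168454 in KO, a gene could reach the minimum of UMIs through WT alone. The part of this in the 45.1% was not tested. The nuclear ratio changed sign with TMM in AT2-like, interstitial macrophage-like and adventitial fibroblast-like cells, and with thinned cells in ciliated-like and both kinds of fibroblast-like cells.

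The mitochondrial log2 ratio was above 0 in 12 of the 14 classes, highest in ciliated-like cells (41670 CPM in WT, 53096 CPM in KO; 0.35) and lowest in AT1-like cells (52638 and 43656 CPM; -0.27, interval -0.29 to -0.25). In AT1-like cells 11 of the 13 mitochondrial members were lower in KO and 4 of them by at least 0.5. With at least 1000 UMIs per cell the AT1-like value was -0.03, and thinned to 1000 UMIs it was -0.09. In interstitial macrophage-like, B-like and T-like cells, which had 61 to 94 KO cells, the ratios of 0.25, 0.17 and 0.23 turned to -0.04, -0.12 and -0.09 with a 10% mitochondrial limit. Club-like cells went from -0.11 to 0.28 with TMM, and general capillary-like cells from 0.03 to -0.12 with the 10% limit. Krt8-high transitional-like cells went from 0.11 to -0.00069 with the 10% limit and to -0.03 with thinned cells, and mesothelial-like cells from 0.14 to -0.0064 with thinned cells.

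The makeup of the mitochondrial mRNA pool differed between the libraries in the same direction over classes. The complex I mRNAs mt-Nd1, mt-Nd2 and mt-Nd3 and mt-Cytb of complex III took a larger share of the pool in KO in 14 of 14 classes. In the same 14 classes mt-Nd4 and mt-Nd4l of complex I, mt-Co2 of complex IV and mt-Atp6 of complex V took a smaller share. The mt-Nd1 share was 4.39% in WT and 5.46% in KO for AT2-like cells, 4.18% and 5.15% for Krt8-high transitional-like cells, 3.74% and 4.49% for ciliated-like cells and 4.43% and 5.40% for alveolar macrophage-like cells. Its log2 ratio of shares had a median of 0.32 over classes (lowest class 0.16, highest class 0.47), and the interval lay above 0 in all 14. For mt-Nd4 the AT2-like share was 8.12% in WT and 7.11% in KO. The median log2 ratio was -0.23 (lowest class -0.34, highest class -0.05), with the interval below 0 in 12 of the 14 classes. The other medians were 0.26 for mt-Nd2, 0.27 for mt-Nd3, 0.11 for mt-Cytb, -0.22 for mt-Nd4l, -0.11 for mt-Co2 and -0.09 for mt-Atp6. The WT shares of mt-Nd1 over the 14 classes (3.63% to 4.46%) and the KO shares (4.35% to 5.85%) overlapped between 4.35% and 4.46%. By contrast, mt-Co3 was higher in 13 classes, mt-Co1 lower in 10, and mt-Nd5 and mt-Nd6 higher in 6 and 7. The classes of a library share its preparation and its free RNA and are not replicates, so these counts describe 1 pair of libraries. The genes mt-Nd4l and mt-Nd4, and mt-Atp8, mt-Atp6 and mt-Co3, overlap in the annotation on the same strand, and their reads cannot be told apart where they overlap. The genes mt-Nd5 and mt-Nd6 overlap on opposite strands, where reads can be told apart only if counting used strand, which is not given in the sources used here.

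**Figure D5:**
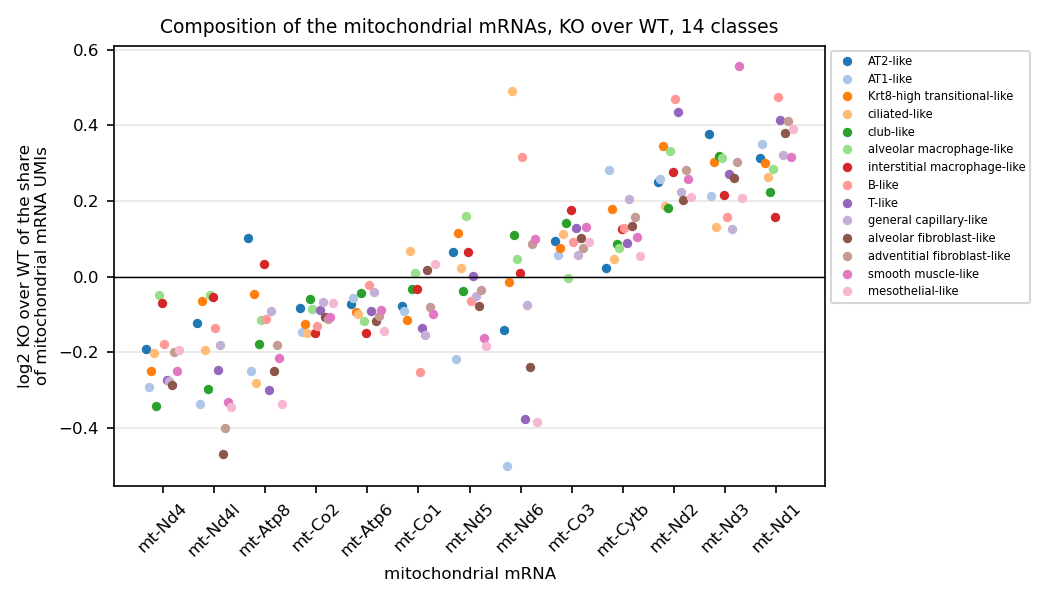
Log2 ratio, KO over WT, of the share that each mitochondrial mRNA takes of all mitochondrial mRNA UMIs, with 1 point per class for the 14 classes with values in both libraries. The points of mt-Nd1, mt-Nd2, mt-Nd3 and mt-Cytb all lie above 0, and those of mt-Nd4, mt-Nd4l, mt-Co2 and mt-Atp6 all below 0.

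Within a library the pool also differed by cell type. In AT2-like cells mt-Co1 took 18.4% of it in WT and 17.4% in KO, in alveolar macrophage-like cells 17.8% and 17.9%, and in Krt8-high transitional-like cells 13.96% and 12.9%. The share of mt-Atp6 went the other way, with 22.6% and 21.2% in Krt8-high transitional-like and 18.5% and 17.6% in AT2-like cells.

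Other genes that build or serve the respiratory chain were counted in the same comparison of Krt8-high transitional-like over AT2-like cells, where all genes had medians of 0.23 in WT and 0.51 in KO. Of 45 assembly factors, which fit the subunits and cofactors together, 36 had enough UMIs in WT and 20 of them were higher and 1 lower by at least 0.5, and of 44 in KO 30 were higher and 1 lower. Their medians were 0.58 and 0.72. Of the 11 carriers and ATP synthase inhibitor genes measured of 12 listed, 7 in WT and 9 in KO were higher, with 1 lower in each. Of the 17 tricarboxylic acid cycle genes, which supply NADH and succinate, 5 in WT and 8 in KO were higher and none lower, with medians of 0.24 and 0.23. Glycolysis genes, which make ATP without oxygen, had medians of 0.89 and 0.85 and 8 of 14 higher and 1 lower in WT and 9 of 16 higher and 2 lower in KO. The 19 regulators of mitochondrial biogenesis had medians of 0.33 and 0.48, with 6 of 15 and 9 of 19 higher and 1 and 4 lower. The background shares of genes higher by as much were 36.4% and 50.4%, as above.

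Between KO and WT AT2-like cells the same lists stood near or below 0. The assembly factors had a median of -0.13 with 2 of 44 higher and none lower by 0.5, the carriers -0.17 with none of 11 past 0.5, the biogenesis regulators -0.11 with 1 of 19 lower, and the tricarboxylic acid cycle genes -0.07 with none of 17. Cycs, which encodes cytochrome c, was at 118 CPM (WT) and 84.8 CPM (KO) (-0.48, interval -0.60 to -0.34). Glycolysis had a median of -0.37, with 4 of 17 lower, and the hypoxia response list -0.20, with 2 of 10 lower. The lowest of these were Pfkp, a phosphofructokinase, with 30.8 and 6.95 CPM (-2.15, interval -2.43 to -1.86), and Hilpda, a lipid droplet protein of the hypoxia response, with 22.6 and 5.32 CPM (-2.09, interval -2.42 to -1.75). Both were chosen after their values were seen. Hilpda is also 1 of the 6 general capillary markers used for gating. Endothelial markers were lower in KO than in WT AT2-like cells, as given above, and their part in the Hilpda ratio was not tested. The background in this comparison was 20.8% lower and 6.21% higher.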

How the data were processed

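Single-cell RNA-seq was analysed from 1 Pclaf WT and 1 Pclaf KO library. The authors deposited UMI counts per gene and barcode, not normalized, aligned to GRCm38 (mm10). The labels name Cell Ranger 3.1.0 and the matrix headers name 5.0.0. Whether counting used strand is not given in the sources used here. Gene positions came from GENCODE M21 (GRCm38), in which all 97 members were found by identifier.

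Within each library the UMIs of a class were added up over its kept cells and divided by all UMIs of that class (CPM, scaled to 1000000). Only classes with at least 50 cells in a library were used, and log2 ratios of single genes needed at least 50 UMIs in both together. A gene was called higher or lower at 0.5 log2 units or more. As cells are not replicates and each genotype had 1 library, no test was run. Doublets were kept in the values given. Scrublet in scanpy 1.11.5 called 8.75% of WT and 2.70% of KO kept cells. The expected rate, set in proportion to the number of kept cells, was 24.1% and 12.5%. Both libraries held more barcodes than the number of cells that the study's methods give per group. TMM factors came from edgeR 4.0.16 and intervals from scipy 1.17.1, and the ratio script was tested on simulated counts. Depth per cell (medians of 2127 and 5957 UMIs) limits single low genes, and a count of 0 allows up to 3 counts.

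The genes named were the paralogs of 8 sets, the 13 mitochondrial mRNAs, the member with most UMIs of each nuclear complex part, the 5 nuclear members with the widest range over classes, the 5 highest and 5 lowest in KO over WT AT2-like cells, and the X-linked members. Members, markers and lists were chosen with earlier results of these data known. The alternatives were no or a 10% mitochondrial limit, no upper limit on genes, at least 1000 UMIs per cell, doublets left out, 4 of 6 markers, cells thinned to 1000 UMIs, other denominators, TMM, and a minimum of 10 or 0 UMIs per gene.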

Additional observations from a re-analysis of the deposited data

Results flagged for a closer look

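The mitochondrial members moved in opposite directions between the libraries in AT2-like and AT1-like cells, with log2 ratios of KO over WT of 0.23 and -0.27. With 1 library per genotype the difference between these 2 ratios was not tested, and the AT1-like ratio was -0.03 among cells with at least 1000 UMIs.

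Barcodes at or over the limit of 20% mitochondrial UMIs, which enter none of the comparisons, were 6.78% of KO barcodes (1165 of 17172) and 1.19% of WT barcodes (366 of 30669). Without that limit the AT2-like mitochondrial ratio was 0.27 and the AT1-like ratio -0.10.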

How the results depend on the processing

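No paired analysis was possible because each genotype had 1 library. In AT2-like cells the nuclear log2 ratio of KO over WT (-0.15) was -0.11 with a 10% mitochondrial limit, -0.16 without mitochondrial and ribosomal protein genes in the denominator, -0.040 without surfactant and secretory transcripts and 0.033 with TMM. The mitochondrial ratio (0.23) was 0.27 without a mitochondrial limit, 0.12 with the 10% limit, 0.23 without an upper limit on genes, 0.18 without doublets, 0.22 with 4 of 6 markers, 0.19 with thinned cells, 0.34 without secretory transcripts and 0.41 with TMM. In AT1-like cells it (-0.27) was -0.10 without a limit, -0.026 with at least 1000 UMIs, -0.29 without doublets, -0.16 with 4 of 6 markers, -0.088 with thinned cells and -0.35 with TMM. For Krt8-high transitional-like over AT2-like cells the nuclear difference in WT (0.62) was 0.57 with the 10% limit, 0.65 with thinned cells, 0.67 without mitochondrial and ribosomal protein genes and 0.38 without secretory transcripts, and in KO (0.81) 0.82 without a limit, 0.73 with the 10% limit, 0.79 without an upper limit on genes, 0.86 with thinned cells, 0.88 without mitochondrial and ribosomal protein genes and 0.48 without secretory transcripts. The mitochondrial difference in WT (-0.70) was -0.63 with the 10% limit, -0.73 without an upper limit on genes, -0.72 with at least 1000 UMIs, -0.75 without doublets, -0.84 with 4 of 6 markers, -0.65 with thinned cells and -0.94 without secretory transcripts, and in KO (-0.83) -0.85 without a limit, -0.76 with the 10% limit, -0.87 both without an upper limit on genes and with thinned cells and -1.16 without secretory transcripts. Thinning took the Cox6a2 share of AT2-like cells to 40.2% in WT and 45.9% in KO, the Cox6b2 share of alveolar fibroblast-like cells in KO to 35.4% and the Ndufa4l2 share of pericyte-like cells to 85.5%, and the Cox6b2 share in WT was 28.6% without doublets; the Cox4i2 share of pericyte-like cells stayed within its interval in every setting run. The other 25 class ratios of KO over WT were recomputed under these settings, which gave 226 values. Of the 25, 11 changed sign in at least 1 setting (18 of the 226 values), all of them between -0.14 and 0.25 in the values reported. Among 41 ratios of named members in AT2-like cells, 14 changed sign in at least 1 setting (24 of 397 values). The causes were not tested. Under the 7 settings on cells, which left 12 or 14 classes with values, mt-Nd1 and mt-Nd2 had a higher share in KO in 12 of 12 or 14 of 14 classes, mt-Nd3 and mt-Cytb in 11 of 12 with thinned cells, mt-Co2 and mt-Nd4 had a higher share in KO in 0 classes, mt-Atp6 in 1 class with the 10% limit, and mt-Nd4l in 1 class without a limit, with the 10% limit and with thinned cells. Low UMI counts limit Cox7a1, Cox7b2, Cox8b and Cox8c.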
